A study of Drosophila melanogaster with 10 samples.

Results

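The mdg1 retrotransposon is 1 of 122 transposons whose small RNA coverage was deposited, and its consensus accounts for 7480 of the 610009 positions. It was chosen by name, and all 10 libraries were used on both strands. The libraries hold Argonaute-bound small RNAs isolated from OSCs, a Drosophila melanogaster line that stems from the somatic cells of the ovary. Only reads of 24 to 35 nt, the size of Piwi-interacting RNAs (piRNAs), were counted, and coverage is given per nt and per 1000000 miRNA reads.

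The first experiment compared 3 libraries of cells that received an siRNA against luciferase (siLuc) with 3 of cells that received an siRNA against armitage (siArmi). These cells had a wildtype genotype, were given the siRNA once more after 48 h, and were collected at 96 h. The second experiment used clonal cells, homozygous for UAS sites placed upstream of the flamenco promoter, and transfected them again after 48 h. The paper does not state whether all these libraries came from the same clone. Controls received Gal4 alone (2 libraries), and the silenced cells received Gal4 fused to the intrinsically disordered region of Panoramix (Panx-IDR), harvested on day 6 and on day 7 (1 library each, treated by the authors as replicates). The Panx-IDR cells were sorted for low GFP and the Gal4 controls were not, so sorting and flamenco silencing cannot be told apart. The labels do not give the harvest day of each Gal4 library.

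As background, mdg1 is an LTR retrotransposon: it is copied through an RNA intermediate, carries Gag and Pol coding regions, lacks an envelope gene, and is flanked by long terminal repeats (LTRs) that hold its promoter and its RNA end. In the somatic cells of the ovary, Piwi is loaded with piRNAs cut mainly from the long flamenco transcript of the X chromosome, and guides heterochromatin formation at transposon copies whose nascent RNA pairs with them. Armitage is an RNA helicase needed for piRNA production, and Panoramix acts with Piwi in silencing. Antisense reads here can pair with mdg1 RNA. Sense reads have the polarity of that RNA.

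Within the reference genome annotation (BDGP6), 45 mdg1 insertions are listed, of which 20 are within 10% of the consensus length. Between DIP1 and CG14621 on the X chromosome, where flamenco lies, there are 6 of them, 2 on the plus and 4 on the minus strand (X, 21687354 to 21704638). This is the reference strain, and the OSC genome was not analysed here. For OSCs the authors report a different flamenco locus, in which all mdg1 fragments are antisense. They assign some low-level mdg1 piRNAs to antisense fragments of a second piRNA cluster, 20A, which is transcribed less than flamenco.

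Antisense mdg1 small RNAs were abundant in control cells and fell after either treatment. Coverage was 5142, 5043 and 3723 per nt in the siLuc libraries and 253.3, 219.2 and 209.6 in the siArmi libraries. The Gal4 libraries had 5483 and 5983, the Panx-IDR library of day 6 had 1652 and that of day 7 had 2087. The order was thus Gal4, siLuc, Panx-IDR and siArmi, and no treated library overlapped its controls. The neighbours Gal4 and siLuc come from different cells and adaptors, and their means of 5733 ± 353 (SD, n = 2) and 4636 ± 792 (SD, n = 3) were not tested against each other. By mean antisense coverage mdg1 ranked at position 3 of 122 in siLuc, siArmi and Gal4 cells and at position 7 in Panx-IDR cells.

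Sense coverage behaved differently. It was 2.73, 2.54 and 2.37 per nt in siLuc, 2.16, 2.25 and 2.55 in siArmi, and 10.3 and 5.99 in Gal4 libraries. In the Panx-IDR libraries it was 926.1 on day 6 and 1120 on day 7. Only the Panx-IDR libraries were thus high on this strand, and siLuc and siArmi overlapped. The sense strand carried 0.0557% ± 0.0070 of mdg1 coverage in siLuc (SD, n = 3), 1.02% ± 0.18 in siArmi (n = 3), 0.144% ± 0.062 in Gal4 (n = 2) and 35.4% ± 0.70 in Panx-IDR cells (n = 2).

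**Figure D1:**
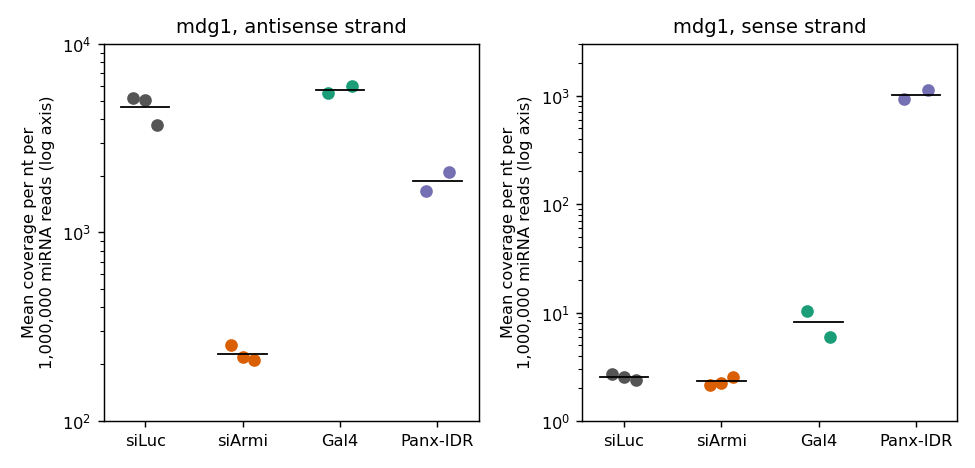
Mean mdg1 coverage per nt and per 1000000 miRNA reads in each of the 10 libraries (log axes); points are libraries and lines are group means. On the antisense strand siArmi libraries sit between 209.6 and 253.3 and Panx-IDR libraries below both Gal4 libraries, whereas on the sense strand only the Panx-IDR libraries, at 926.1 and 1120, stand above the rest.

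The depth differed between the experiments. The smallest steps between the values place 1297626 to 1799370 miRNA reads behind the siLuc libraries, 586560 to 875165 behind siArmi, 87066 to 110492 behind Gal4 and 117444 to 151205 behind Panx-IDR. At least 31756 antisense mdg1 reads stood behind every library. Sense reads numbered at least 28112 in each Panx-IDR library. In the other groups, the library with the fewest had at least 704 (siLuc), 270 (siArmi) and 141 (Gal4). These are lower bounds that take every read as 35 nt long. Profiles of the sense strand are therefore coarse in Gal4 and siArmi libraries. Nothing in the labels says whether siLuc, siArmi and Gal4 replicates came from separate cultures. Nor do they say whether the Panx-IDR libraries of day 6 and day 7 came from separate transfections. The p-values below may thus not cover the spread between cultures. All limma p-values below, those of Armi depletion included, rest on a spread estimated across the elements tested and not on that of mdg1 alone. Replicate libraries differed beyond the sampling noise of their counts, and each was counted as 1 sample.

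On flamenco silencing, antisense mdg1 coverage fell to 0.326 of the Gal4 mean, to 0.288 on day 6 and to 0.364 on day 7. Its log2 change was -1.62 (95% interval -2.06 to -1.19, limma, adjusted p = 3.2e-11), lower in 2 of 2 libraries. The median over the 73 elements tested was -0.57, and 53.4% of them fell and 8.22% rose past the threshold (61.6% in either direction). The decrease of mdg1 was the 17th largest. Scaling to total transposon signal moved the median of all elements to 0.07 and mdg1 to -0.95.

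Sense coverage rose 126-fold over the Gal4 mean, 114-fold on day 6 and 138-fold on day 7. On the log2(value + 1) scale the rise was 6.84 (6.41 to 7.28, limma, adjusted p = 2.9e-54), the largest of the 54 elements tested, whose median was -0.25. Of these, 61.1% changed, 25.9% up and 35.2% down. An element was tested if its mean over both groups was at least 10. With 8.13 in Gal4 cells, mdg1 passed only through the Panx-IDR libraries, so its call and rank follow in part from this filter. The ratio of sense to antisense coverage, which scaling to miRNAs barely touches, rose by 8.47 (7.95 to 8.99, limma, adjusted p = 7.5e-72) and was again the largest, of 84 elements of which 59.5% changed, 42.9% up and 16.7% down. Because limma estimated one spread shared by the elements, these p-values do not measure how well mdg1 itself was replicated, and an exact permutation test of 2 libraries against 2 cannot go below p = 0.33.

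Armi depletion took antisense mdg1 coverage to 4.91% ± 0.50 (SD, n = 3) of the siLuc mean, which is 20.4-fold lower. The log2 change was -4.33 (-4.72 to -3.95, limma, adjusted p = 8.8e-56), while the median of the 50 elements tested was -4.30 and 100% of them fell and 0% rose, so mdg1 lay in the middle of a general loss. Relative to total transposon signal or under median-ratio scaling the change of mdg1 was 0.020 or 0.047 and no longer passed the test. Sense coverage averaged 2.55 ± 0.18 in siLuc and 2.32 ± 0.20 in siArmi cells (SD, n = 3 each), and an exact two-sided permutation test gave p = 0.3 (0.417 adjusted over 5 such tests, with 0.1 the smallest possible). Scaled to total transposon signal, the siArmi mean was instead higher by 23.98 per nt. By mean sense coverage mdg1 ranked at position 62 of 122 in siLuc and 18 in siArmi cells.

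Antisense mdg1 coverage fell by less on flamenco silencing than on Armi depletion. The difference of the log2 changes was 2.71 (2.17 to 3.25, limma, adjusted p = 1.3e-20), and 100% of the 65 elements tested had a positive and 0% a negative difference, with a median of 3.13. Scaled to total transposon signal the direction turned, with a difference of -0.97 for mdg1 beside a median of -0.07 (limma, adjusted p = 8.4e-10). Under median-ratio scaling the difference was -1.02.

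Of the other elements of the mdg1 group, LTR retrotransposons related by their coding regions, 4 of the 5 on the list are in the tables (Stalker4 was not analysed here). They are blood, Stalker, Stalker2 and an element whose name is a bare numeral, called here the remaining member. On flamenco silencing 4 of 4 fell on the antisense strand, against 53.4% of all elements, with log2 changes of -1.53 (blood), -1.14 (Stalker), -0.91 (Stalker2) and -1.27 (the remaining member). The list median was -1.20, and the call of Stalker2 was lost when the day 6 library was left out (limma, adjusted p = 0.0502) or under scaling to total transposon signal.

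On the sense strand 3 of these 4 elements rose, against 25.9% of all elements. Coverage of blood went from 27.5 ± 3.97 in Gal4 to 126.2 ± 2.53 in Panx-IDR cells, that of Stalker2 from 41.7 ± 5.39 to 183.7 ± 18.5 and that of the remaining member from 1.89 ± 0.13 to 40.4 ± 3.52 (SD, n = 2 each). All remained far below the 1023 ± 137 of mdg1. The remaining member passed the coverage filter only through its Panx-IDR libraries, so its call follows in part from that filter. Stalker had 76.6 ± 5.30 in Gal4 and 48.4 ± 6.48 in Panx-IDR cells, a log2 change of -0.66 that was called lower. That call was lost without Gal4 replicate 2 and without the day 6 library, and the value was 0.0062 when scaled to total transposon signal. On Armi depletion 4 of 4 fell on the antisense strand with a median of -4.66, as did 100% of all elements tested, with a median of -4.30.

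**Figure D2:**
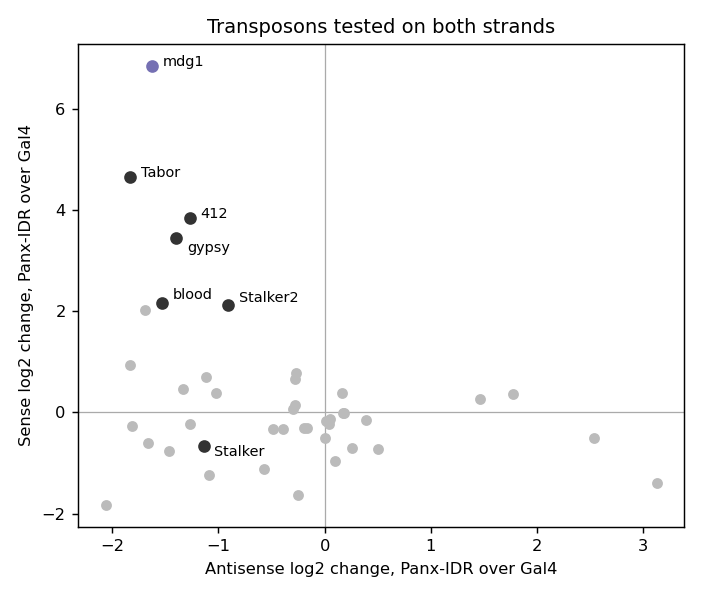
Log2 changes of Panx-IDR over Gal4 cells for the 43 elements tested on both strands, antisense on the x axis and sense on the y axis (log2 of mean coverage + 1); each point is an element, and mdg1 (purple), the mdg1 group, Tabor and gypsy are named. At -1.62 and 6.84, mdg1 lies in the upper left, above all other points on the sense axis.

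Likeness to mdg1 was measured as the root mean square difference of log2(mean coverage + 1) over the 10 libraries after each element was centred on its own mean. On the antisense strand (64 elements compared) the nearest were gypsy2_new (0.0967), gtwin (0.132), the remaining member of the mdg1 group (0.134), G6 (0.174) and Tabor (0.178). For comparison, the most distant of the 64 elements stood at 1.88. The measure includes the fall on Armi depletion, which was called in 100% of the elements tested, so closeness reflects in part a shared fall. On the sense strand (45 elements) even the nearest were far: Tabor (1.09), gypsy (1.66), blood (1.70), Stalker2 (1.87) and Quasimodo (2.31). Sense coverage of Tabor rose from 3.57 ± 0.41 to 113.7 ± 6.01 on flamenco silencing and was 2.33 ± 0.33 in siLuc and 0.281 ± 0.064 in siArmi cells, or 0.121 of the siLuc mean. That of gypsy also rose on flamenco silencing, from 12.04 ± 0.51 to 141.7 ± 13.8. In siLuc and siArmi cells gypsy had 9.55 ± 0.22 and 6.67 ± 1.204, or 0.698 of the siLuc mean. For mdg1 this ratio was 0.911. These siArmi ratios were not tested between elements and depend on the scaling to miRNAs.

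The start and the end of the mdg1 profile were the same. Over nt 1 to 442 and nt 7039 to 7480, 88.1% of antisense and 94.0% of sense values were equal, counting those above 0 at either place. Over the inner nt 35 to 407, 100% were equal within a relative tolerance of 0.0001. The stretches of nt 1 to 442 and nt 7039 to 7480 were taken as the LTRs. A read that fits both was given a weight of 0.5 at each place, so the 5′ and 3′ LTR cannot be told apart. The rest was divided at nt 2912, the end of the last long gap of its 5′ portion, into a 5′ internal part (nt 443 to 2912, 33.0% of the consensus) and a 3′ internal part (nt 2913 to 7038, 55.2%).

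Antisense coverage was concentrated in the LTRs and the 3′ internal part. In siLuc cells these had 6400 ± 1049 and 6867 ± 1184 per nt, against 276.5 ± 46.5 in the 5′ internal part (SD, n = 3), which held 1.97% ± 0.015 of the antisense signal. A gap was defined as a stretch of at least 100 nt below 10% of the mean antisense coverage of the element. A gap position is any position below this limit, also outside such a stretch (2063 in siLuc cells). The siLuc profile had 6 of them. The first ran from nt 457 to 1096, the next from nt 1200 to 1315, then came nt 1514 to 1739, nt 1862 to 1968 and nt 2180 to 2912, and the last lay near the 3′ LTR at nt 6719 to 6819. The longest were almost empty, with 14.2 ± 3.96 per nt in the 640 nt from nt 457 and 31.9 ± 6.81 in the 733 nt from nt 2180. Between them lay islands of 868 to 977 per nt, at nt 1097 to 1199, 1316 to 1513, 1740 to 1861 and 1969 to 2179.

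The gaps had nearly the same borders in every group. In Gal4 cells they ran from nt 457 to 1093, 1200 to 1314, 1514 to 1737 and 2175 to 2912, and in Panx-IDR cells from nt 457 to 1093, 1200 to 1313, 1521 to 1737 and 2179 to 2912. The last border, nt 2912, was the same to the nucleotide in all 4 groups. Of all siLuc positions below the limit, 99.0% were below it in siArmi, 98.2% in Gal4 and 95.5% in Panx-IDR cells, and these shared positions were 96.6%, 99.1% and 99.9% of each group's own. The gaps at nt 1862 and nt 6719 fell short of 100 nt in Gal4 and Panx-IDR cells.

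**Figure D3:**
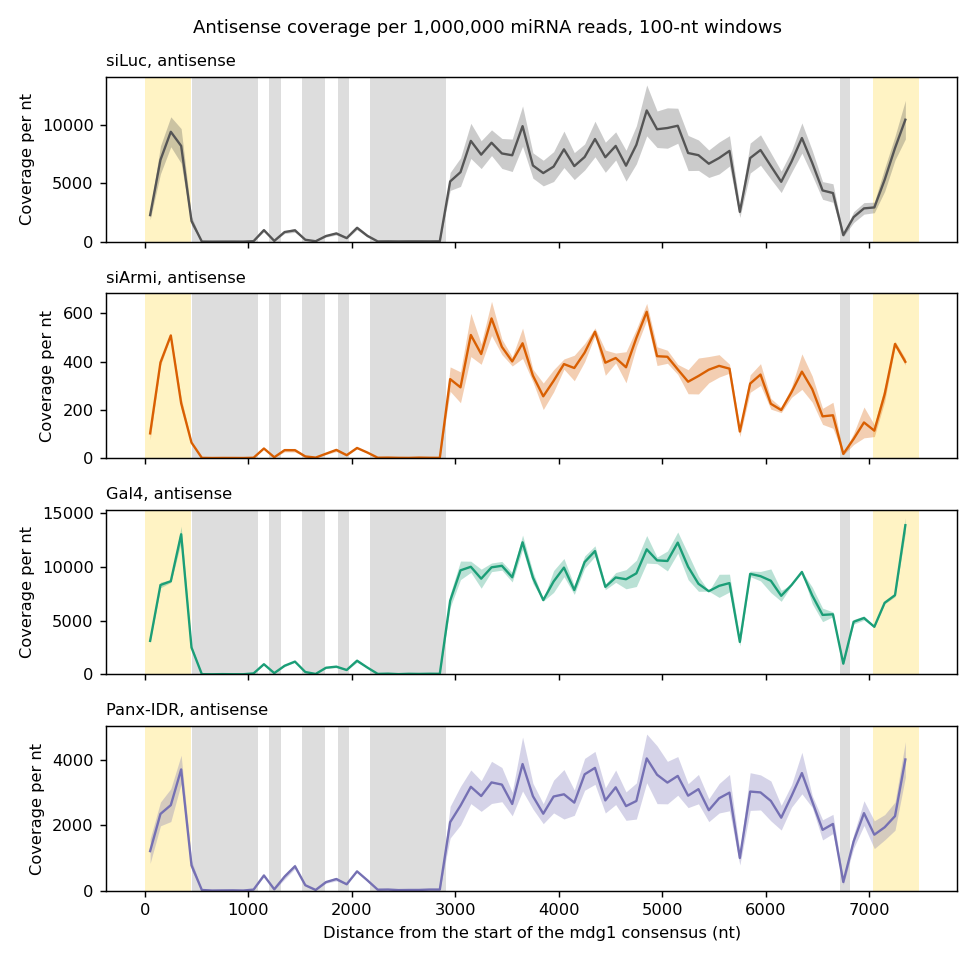
Antisense coverage per nt and per 1000000 miRNA reads in windows of 100 nt along the mdg1 consensus (x axis, nt from its start), by group; lines are means, bands are ± 1 SD over 3 (siLuc, siArmi) or 2 (Gal4, Panx-IDR) libraries, grey marks the 6 siLuc gaps and yellow the LTRs, and the y axes differ. The same empty stretches before nt 2912 recur in all 4 groups, at levels that differ 20.4-fold between siLuc and siArmi.

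The shape of the antisense profile was kept when its level fell. Over 74 windows of 100 nt, Pearson's r between libraries was 0.947 to 0.965 for siLuc with siArmi and 0.983 to 0.988 for Gal4 with Panx-IDR, against 0.997 to 0.999 within siLuc. This describes windows of the same element, which share its sequence and are not independent. In siLuc, siArmi and Panx-IDR cells the highest window was nt 4801 to 4900, with 11202, 607 and 4036 per nt. In Gal4 cells it was nt 7301 to 7400 in the LTR, with 13851 per nt.

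The losses were uneven along the element on flamenco silencing. The LTRs kept 30.0% ± 5.1 and the 3′ internal part 32.7% ± 5.6 of the Gal4 level, while the 5′ internal part kept 51.0% ± 1.3 (SD, n = 2). As a fraction of the Gal4 mean, the 5′ internal part kept 0.519 beside 0.288 in the 3′ internal part on day 6, and 0.5002 beside 0.366 on day 7. Per nt, the Gal4 libraries had 308.1 and 337.7 over this part, and the Panx-IDR libraries 167.6 (day 6) and 161.5 (day 7). Of its islands, those at nt 1097, 1316, 1740 and 1969 kept 48.8%, 62.0%, 46.2% and 48.7%, so the higher share was not limited to the gaps. This contrast between parts was seen in the values and was not tested. The authors report that low-level mdg1 piRNAs of about this stretch match antisense fragments found only in the second piRNA cluster mentioned above. They also report that tethering left the piRNAs of that cluster unaffected. Which cluster the reads kept here came from was not tested.

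On Armi depletion the parts did not differ in this direction. The LTRs kept 4.53% ± 0.23, the 5′ internal part 3.98% ± 0.17 and the 3′ internal part 5.00% ± 0.56 of the siLuc level (SD, n = 3). Every window of the 5′ internal part held gap positions, so the 44 windows free of them leave that part out. Over these 44 windows, the share left ranged from 2.78% (nt 301 to 400) to 6.86% (nt 3301 to 3400) in siArmi, with a median of 4.97%. In Panx-IDR cells it ranged from 26.9% (nt 3001 to 3100) to 45.2% (nt 6901 to 7000), with a median of 32.5%. The 5′ internal part, outside this range, kept 51.0% in Panx-IDR cells.

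**Figure D4:**
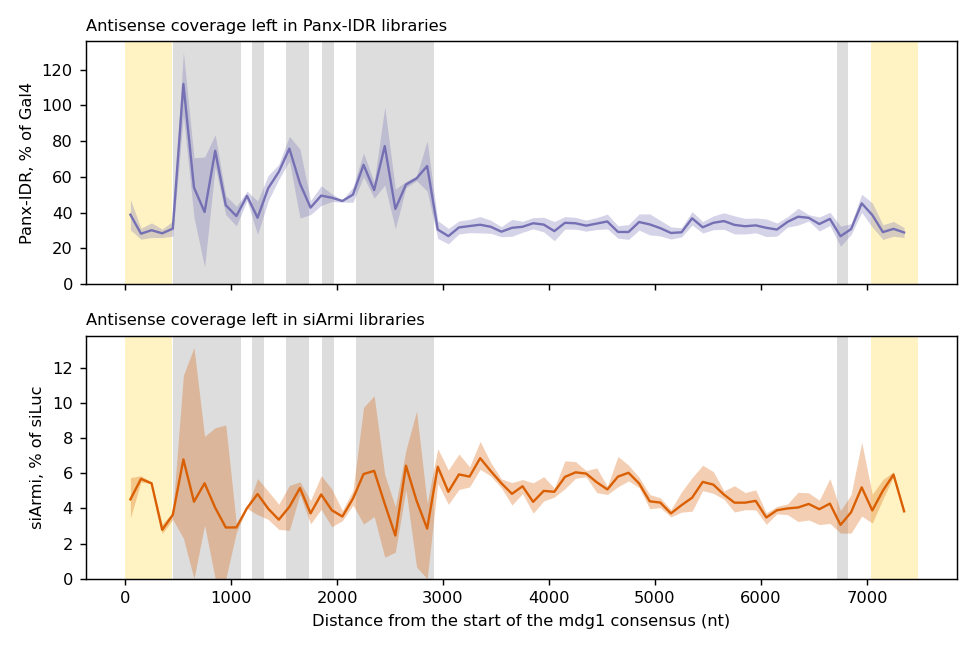
Antisense coverage left in windows of 100 nt along mdg1 (x axis, nt from the consensus start), in percent of the Gal4 mean for Panx-IDR (upper panel) and of the siLuc mean for siArmi libraries (lower panel); lines are group means, bands span the lowest and highest library, grey marks siLuc gaps and yellow the LTRs. The Panx-IDR line lies higher in the 5′ internal part (51.0% as a whole) than in the LTRs (30.0%) and the 3′ internal part (32.7%), whereas the siArmi line is not higher there (3.98%, 4.53% and 5.00%); inside gaps both lines rest on little coverage.

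Gap positions, those outside the long gaps included, held slightly more of the antisense signal after flamenco silencing. Relative to the other positions their coverage was 1.02% and 1.01% with Gal4, and with Panx-IDR it was 1.77% on day 6 and 1.34% on day 7. The groups did not overlap, but an exact permutation test gave p = 0.33, the smallest that 2 against 2 allows (0.417 adjusted over 5 tests). In absolute terms coverage at gap positions was 77.0 and 82.9 per nt with Gal4, and 40.1 and 38.5 with Panx-IDR. On Armi depletion, with gap positions set in the Gal4 profile, the relative value was 0.750% ± 0.030 in siLuc and 0.740% ± 0.053 in siArmi cells (SD, n = 3 each, exact permutation p = 0.9).

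The sense profile of Panx-IDR cells covered nearly the whole element, the long antisense gaps included. Sense reads reached 99.4% (day 6) and 98.1% (day 7) of its positions. Coverage was 1505 ± 173 per nt in the LTRs, 720.8 ± 132.6 in the 5′ internal part and 1101 ± 132 in the 3′ internal part (SD, n = 2). Within the 5′ internal part it stepped up from 242.0 ± 40.1 in the gap from nt 457 to 1549 ± 275 in the island from nt 1740, and it was 953.1 ± 163.6 in the gap from nt 2180. In that gap sense exceeded antisense coverage 30.0-fold, whereas from nt 2913 to 6718 it was 0.395 of it.

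The highest windows of the sense and the antisense profile lay in different places. The highest Panx-IDR window was nt 5401 to 5500 with 3729 (day 6) and 4321 (day 7) per nt, where antisense coverage was 2210 and 2705. The single highest positions were nt 5462 and nt 5464. Over all 74 windows Pearson's r between sense and antisense coverage was 0.42 (day 6) and 0.38 (day 7). Over the 44 windows free of gap positions, which leave out the 5′ internal part, it was -0.02 and -0.03. In these windows the ratio of the strands ran from 0.131 (nt 4801 to 4900, the antisense maximum) to 1.64 (nt 5401 to 5500). In the island at nt 1740 to 1861, outside these windows, it was 3.42.

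A different picture held at nt 6719 to 6819, which was low on both strands. Sense coverage there was 17.2 ± 16.6 per nt in Panx-IDR cells (SD, n = 2), beside 966.9 ± 91.8 in the 219 nt that follow it. Antisense coverage was 29.6 ± 7.22 in siLuc, 104.4 ± 1.09 in Gal4 and 19.98 ± 2.33 in Panx-IDR cells. The longest stretch below 10% of the mean Panx-IDR sense coverage ran from nt 6703 to 6827. Of the 272 such positions along mdg1, 246 were also antisense gap positions of siLuc cells.

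The low sense signal of control cells had another shape. In siLuc libraries, 41.3% ± 2.7 of it fell in the 5′ internal part and 27.3% ± 2.1 in the LTRs (SD, n = 3), and the 1% of positions with the most coverage held 16.1% to 16.5%. Its highest positions were nt 1293, 1291 and 42 in the 3 libraries. In the Gal4 libraries they were nt 42 and nt 1288, and 41.5% ± 8.7 (SD, n = 2) of the signal fell in the 5′ internal part. The same places thus led in both control groups, although the cells and adaptors differed.

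The first 100 nt and nt 1201 to 1300 show this at the level of libraries. From nt 1201 to 1300, sense coverage was 13.5, 14.1 and 10.7 per nt in siLuc, 55.0 and 48.2 in Gal4, and 0.716, 3.27 and 2.98 in siArmi libraries. The siArmi libraries were all below siLuc, in windows that were chosen as among the highest of siLuc cells. Over the first 100 nt it was 12.2, 13.2 and 13.0 in siLuc and 1.45, 0.806 and 1.21 in siArmi, while the Gal4 libraries differed widely (116.7 and 7.15). Over both LTRs the Gal4 libraries had 35.3 and 8.52 per nt, beside 4.48 and 3.86 in the 3′ internal part, so their difference lay mainly in the LTRs.

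Sense reads of siArmi cells lay elsewhere although their mean levels overlapped with those of siLuc cells. In the 3′ internal part, coverage was 1.52, 1.45 and 1.38 per nt in siLuc and 2.27, 2.56 and 2.82 in siArmi libraries, which did not overlap, and it averaged 1.76-fold higher (1.57 to 1.95). In the LTRs it was 0.549 and in the 5′ internal part 0.503 of the siLuc mean. The 5′ internal part held 22.9% ± 2.9 of the sense signal in siArmi against 41.3% ± 2.7 in siLuc cells, a difference of -18.4 percentage points (SD, n = 3 each, exact permutation p = 0.1, the smallest possible, 0.417 adjusted over 5 tests). This measure was chosen after the values were seen. The share is free of the scaling to miRNAs, whereas the ratios of levels between siArmi and siLuc cells are not. At least 69 sense reads in the 5′ and 156 in the 3′ internal part stood behind each siArmi library.

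The siArmi sense profile was nearer to that of Panx-IDR cells than to that of its own control. In Panx-IDR cells the 5′ internal part held 23.2% ± 1.2 and the 3′ internal part 59.4% ± 0.84 of the sense signal (SD, n = 2), beside 22.9% ± 2.9 and 60.7% ± 2.5 in siArmi cells (SD, n = 3). Pearson's r over 74 windows was 0.573 to 0.658 between siArmi and Panx-IDR libraries, 0.489 to 0.598 among siArmi libraries, and 0.009 to 0.174 between siArmi and siLuc libraries. Between siLuc and Gal4 libraries it was 0.628 to 0.833, and between siLuc and Panx-IDR libraries -0.160 to -0.023. These values describe windows of the same element and libraries of different depth.

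The highest window of the siArmi group mean was also the Panx-IDR one. From nt 5401 to 5500, sense coverage was 8.01, 8.07 and 6.03 per nt in siArmi libraries, against 1.59, 0.647 and 3.33 in siLuc and 6.55 and 5.88 in Gal4 libraries. Relative to the mdg1 mean of the same library, this window stood 2.37 to 3.71 times higher in siArmi and 3.86 to 4.03 times higher in Panx-IDR, but at 0.255 to 1.41 in siLuc and 0.637 to 0.983 in Gal4 libraries. This window was chosen as the highest of the siArmi mean and of both Panx-IDR libraries, so that their higher values there follow in part from the choice and carry no test.

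On flamenco silencing the share of the 5′ internal part in the sense signal went from 35.4% and 47.6% in the Gal4 libraries to 22.4% on day 6 and 24.01% on day 7, a difference of -18.3 percentage points (exact permutation p = 0.33, the smallest possible, 0.417 adjusted over 5 tests). Here the level rose in every part, 68.6-fold in the LTRs, 73.4-fold in the 5′ and 264-fold in the 3′ internal part.

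**Figure D5:**
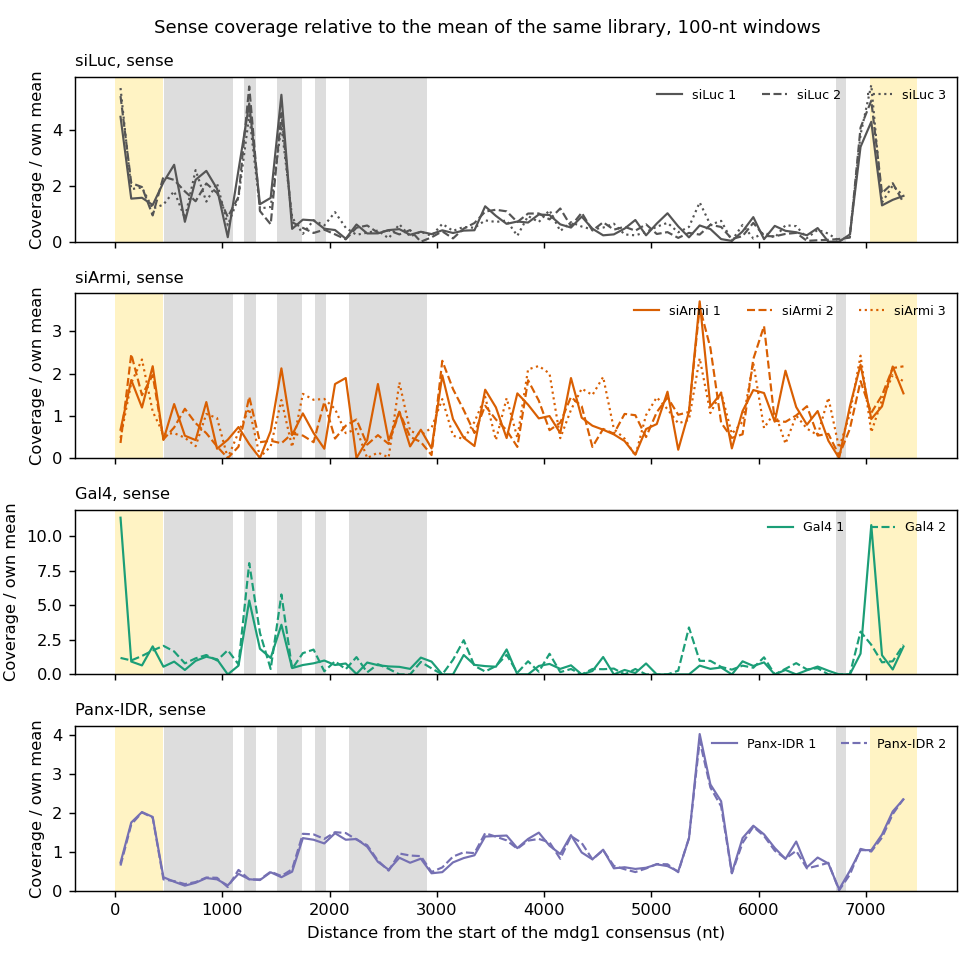
Sense coverage in windows of 100 nt along mdg1 (x axis, nt from the consensus start), divided by the mean sense coverage of the same library (y axis, no unit); each line is a library, grey marks siLuc gaps, yellow the LTRs, and the y axes differ. The siLuc and Gal4 lines have their highest windows at the LTRs (nt 1 to 100 or 7001 to 7100), at nt 1201 to 1300 or at nt 1501 to 1600, the Panx-IDR lines and the mean of siArmi libraries at nt 5401 to 5500.

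The files do not hold read lengths, but an isolated stretch of even coverage has the length of the read or reads behind it. On the sense strand 40 of 51 such stretches in siLuc libraries (78.4%) and 52 of 73 in Gal4 libraries (71.2%) were 25 to 28 nt long, with medians of 27 nt in both. In siArmi libraries 27 of 59 were (45.8%), with a median of 28 nt. By library the share was 63.6% to 93.8% in siLuc, 67.6% and 75.0% in Gal4 and 33.3% to 52.4% in siArmi, so that siArmi did not overlap with either control. On the antisense strand of siArmi libraries 14 of 20 stretches were in this range. No isolated sense stretch was left in Panx-IDR libraries, where coverage was nearly continuous.

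The 5′ ends of sense and antisense mdg1 reads, read from the rises and falls of coverage, overlapped by 10 nt slightly more often than by other distances in Panx-IDR cells. Of 30 overlaps tried, 10 nt was the most frequent on both days, at 1.17 (day 6) and 1.25 (day 7) times the mean. Such an overlap is known from pairs of piRNAs made by reciprocal cleavage. The authors state that OSCs lack Aubergine and Ago3 and do not use this cycle, and the origin of the overlap was not tested. The excess was small, and in siLuc and Gal4 libraries 10 nt had 0.669 to 1.54 times the mean and was not the most frequent in any. It led in 1 of 3 siArmi libraries, replicate 3, at 1.41 times the mean. Among elements with a coverage of at least 10 on both strands, 10 nt led in 2 of 42 on day 6 and in 4 of 41 on day 7.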

How the data were processed

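The authors trimmed adaptors, selected reads by length (24 to 35 nt), and aligned these with Bowtie to RepBase-based consensus sequences with up to 2 mismatches, discarded reads that fit more than 1 consensus, and weighted a read at 2 places by 0.5. They deposited coverage per position: sense as a signal, antisense as negative scores whose size was used here, both per 1000000 miRNA reads. The submitters' processing notes name cutadapt, Bowtie and HOMER. Tethering and siRNA libraries had different 3′ adaptors.

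Mean coverage per nt of all elements was compared with limma 3.58.1 (R 4.3.3, trend) on log2(mean + 1), leaving out elements whose mean was under 10, with Benjamini-Hochberg adjustment at 0.05. Single values were compared by two-sided exact permutation tests. The scripts used Python 3.11.15, numpy 2.4.6, pandas 2.3.3, scipy 1.17.1 and matplotlib 3.10.9. The limma fits were tested on simulated data. Reads shared between similar elements are missing from the coverage, and the miRNA content of a library sets the scale of all its values.

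Elements named are mdg1, the mdg1 group and, per strand, the 5 nearest to mdg1. Members, lists and tests were chosen with earlier results of these data known. Alternatives were pseudocounts of 0.1 and 10, no filter, the median over positions, no trend, other scalings, all libraries together, the replicate block, other gap limits (5% and 20%) and each library left out in turn. No consensus sequence was used here.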

Additional observations from a re-analysis of the deposited data

How the results depend on the processing

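Of 108 mdg1 values recomputed under alternatives, 95 kept their direction and their side of the threshold or, for values compared by exact tests, moved by less than the replicate SD. Those of the Armi comparison depended on scaling to miRNAs: the antisense log2 change of mdg1 was 0.020 (limma, adjusted p = 0.589) scaled to total transposon signal and 0.047 (0.281) under median-ratio scaling, and the difference between treatments was -0.97 and -1.02. The sense difference between siArmi and siLuc cells was 23.98 per nt scaled to total transposon signal and 0.097 without the LTRs. The sense change of Stalker on flamenco silencing was 0.0062 scaled to total transposon signal. With a gap limit of 20% the gap share differed by 1.15 points on flamenco silencing and by -0.279 on Armi depletion. The share of the 5′ internal part in the sense signal differed by -29.4 (siArmi) and -30.3 (Panx-IDR) points among internal reads and by -14.4 in siArmi cells with the border at the middle of the consensus, alternatives chosen after seeing the data. With each library left out, assuming that a lone library varies like the others, the antisense change ranged from -1.79 to -1.46 on flamenco silencing and from -4.48 to -4.25 on Armi depletion, their difference from 2.54 to 2.88, the sense change from 6.50 to 7.19, the ratio change from 8.06 to 8.88, the sense level difference on Armi depletion from -0.341 to -0.135, the gap share from 0.33 to 0.757 (flamenco) and from -0.035 to 0.017 (Armi, turning without siArmi replicate 2, 0.017, or siLuc replicate 1, 0.0047), and the share of the 5′ internal part from -19.7 to -16.8 (Armi) and from -24.5 to -12.2 (flamenco). The same replicate numbers of siLuc and siArmi libraries did not deviate together on the antisense strand (r = 0.07, -0.09 and 0.21), and with the replicate number as a block the antisense change on Armi depletion stayed at -4.33. Counts of called elements moved by over 1.5 times in several cases: on flamenco silencing 28 (total signal) or 18 (median-ratio) against 6 rose on the antisense strand; 8 fell and 9 rose on the sense strand with the median over positions, and 8 and 28 scaled to total signal, against 19 and 14; and the ratio fell in 4 and rose in 21 with the median over positions, against 14 and 36. On Armi depletion 120 fell without a filter, and 23 fell and 9 rose (total signal) or 22 and 10 (median-ratio), against 50 and 0; the difference was higher in 115 without a filter, and lower in 29 and higher in 23 under both scalings, against 0 and 65. In Gal4 and siArmi libraries the few sense reads limit the profiles.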
